A study of Danio rerio with 12 samples.

Results

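Transcripts of 39 genes that copy DNA or carry cells through mitosis were followed in whole zebrafish embryos of the moonshine line and in their siblings at 30 and 22 hours post fertilization (hpf). The genes were chosen by 38 names picked for their roles in the cell cycle, with earlier results of these data known. The names were looked up among the 32520 Ensembl gene IDs of the count table. Every name was found. The name mcm6 fitted 2 IDs that share the orthologue symbol MCM6, and these are told apart by their IDs. The name birc5a was found under the symbol BIRC5 of its orthologue. All 39 genes passed the filter on low counts and were among the 21778 genes tested.

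Embryos called mon are mutant for trim33, which encodes the transcriptional cofactor TIF1γ, and are known for their lack of red blood cells. Each genotype was sampled at each stage with 3 libraries, which gave 4 groups. Siblings bear the label wild-type/het, and carriers of 1 mutant allele may be among them. All groups descend from crosses of heterozygous fish in which 1 parent passed on the reporter drl:EGFP. Mutants were recognised by weak green fluorescence, so the groups rest on phenotype. Each library held 30 pooled embryos of 1 clutch, and a clutch came from a single pair of fish. The 30 hpf libraries came from clutches 3, 4 and 9, and the 22 hpf libraries from clutches 9, 11 and 13. Only clutch 9 was collected at both stages.

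Before a cell copies its genome, the loading factors Cdc6 and Cdt1 place the ring of MCM2 to MCM7 on origins, and Cdc45 and the GINS complex turn this ring into the replicative helicase. Polymerases, the sliding clamp PCNA, its loader RFC and the single-strand binding protein RPA then build the fork. Cyclins and their kinases time these steps, and Aurora and Polo kinases, motors and chromosome proteins carry out division. These roles are known from yeast, frog and human cells. In fish embryos of these stages many precursor cells still divide while muscle fibres and neurons leave the cycle.

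Totals ran from 18233320 to 23135676 counts per library. Levels are counts scaled to a common library total with TMM factors (CPM), and they are not compared between genes because they are not corrected for length. The mutated gene trim33 was lower in mon at 22 hpf (log2 fold change -0.56 ± 0.08 SE, edgeR quasi-likelihood, Benjamini-Hochberg adjusted p = 0.00129), while its value at 30 hpf was -0.08 ± 0.08 (adjusted p = 1). The level of trim33 thus checks the label at 22 hpf and not at 30 hpf. Of all genes, 0.551% were lower in mon at 30 hpf and 0.312% at 22 hpf. Of 12 erythroid markers, 11 were lower in mon at 30 hpf and 10 at 22 hpf. Their summed level ranged over 27.1 to 34.9 CPM in mon and 1689 to 1861 CPM in siblings at 30 hpf, and over 36.5 to 36.7 CPM in mon and 369 to 406 CPM in siblings at 22 hpf. One of these markers, the globin gene hbae1.1, had no read in mon clutch 4 at 30 hpf. In whole embryos, fewer cells of a type and less RNA per cell cannot be told apart.

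The first comparison set 30 hpf against 22 hpf within each genotype, and it was fitted on the 12 libraries together. Most replication genes fell in both genotypes, and most genes of mitosis did not pass the test. In mon 18 of the 39 genes were lower and 2 higher at 30 hpf, and in siblings 17 were lower and 2 higher (edgeR quasi-likelihood, Benjamini-Hochberg adjusted p under 0.05). Of all 21778 genes, 20.2% were lower and 22.1% higher in mon, and 20.7% were lower and 22.4% higher in siblings. The share of the 39 genes called lower was thus 46.2% in mon and 43.6% in siblings. These shares are descriptions, since the genes were chosen with earlier results of these data known. The falls were moderate, from 11.6% for ccnb1 to 30.2% for cdt1 in mon and from 10.9% for pola1 to 33.2% for cdt1 in siblings. With clutch as a block, the stage effect rests on clutch 9, the only clutch at both stages. The p-values of that fit therefore do not measure how a stage effect varies between clutches. In it, 23 were lower and 2 higher in mon, against 19.7% of all genes lower and 21.7% higher. In siblings the block gave 22 lower and 3 higher, against 20.5% of all genes lower and 22.1% higher. Without clutch 9 at either stage, with 2 libraries a group, 9 of the 39 were lower in mon and 10 in siblings. Most replication genes were then not called. Of all genes, that fit called 3194 lower in mon and 3457 in siblings, against 4398 and 4518 with every library. Counted by libraries that did not overlap between stages, 19 genes were lower and 2 higher in mon (24.9% and 26.2% of all genes), and 21 were lower and 2 higher in siblings (25.9% and 26.8% of all genes). Without the block, 18 genes were called in both genotypes. Besides these, cdc6 and rfc1 were called in mon and pola1 in siblings. Mon and siblings came from the same clutches, so a call in both genotypes is not independent replication. Outside clutch 9, stage and clutch cannot be told apart.

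Counted by role, 16 of 26 replication genes were lower in mon and 15 of 26 in siblings, with none called higher in either. Of the 13 genes of cyclins, kinases and mitosis, 2 were lower and 2 higher in each genotype. The share lower was 61.5% in mon and 57.7% in siblings for replication genes, and 15.4% in each for the other 13. Of all genes 20.2% were lower in mon and 20.7% in siblings, so few calls among the 13 are not particular to them. The median log2 fold change of the replication genes was -0.28 in mon and -0.25 in siblings, and that of the other 13 was -0.04 in mon and 0.00 in siblings. Over all genes tested the median was -0.01 in mon and -0.02 in siblings. The difference between the role groups is a description, since genes of 1 role are not independent of each other. The stage effect itself was compared between genotypes by the difference of the log2 fold changes. By that test 0 of the 39 genes were called in either direction (edgeR quasi-likelihood), against 0.0689% of all genes lower and 0.0184% higher. None of the 39 had an unadjusted p under 0.05 there, against 698 of all 21778 genes, and DESeq2 called 0 as well. With the clutch block 0 were called too, against 0.262% of all genes lower and 0.22% higher. So few of all genes were called that 0 calls among the 39 say little. They do not show that the stage effects of the genotypes are equal.

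**Figure D1:**
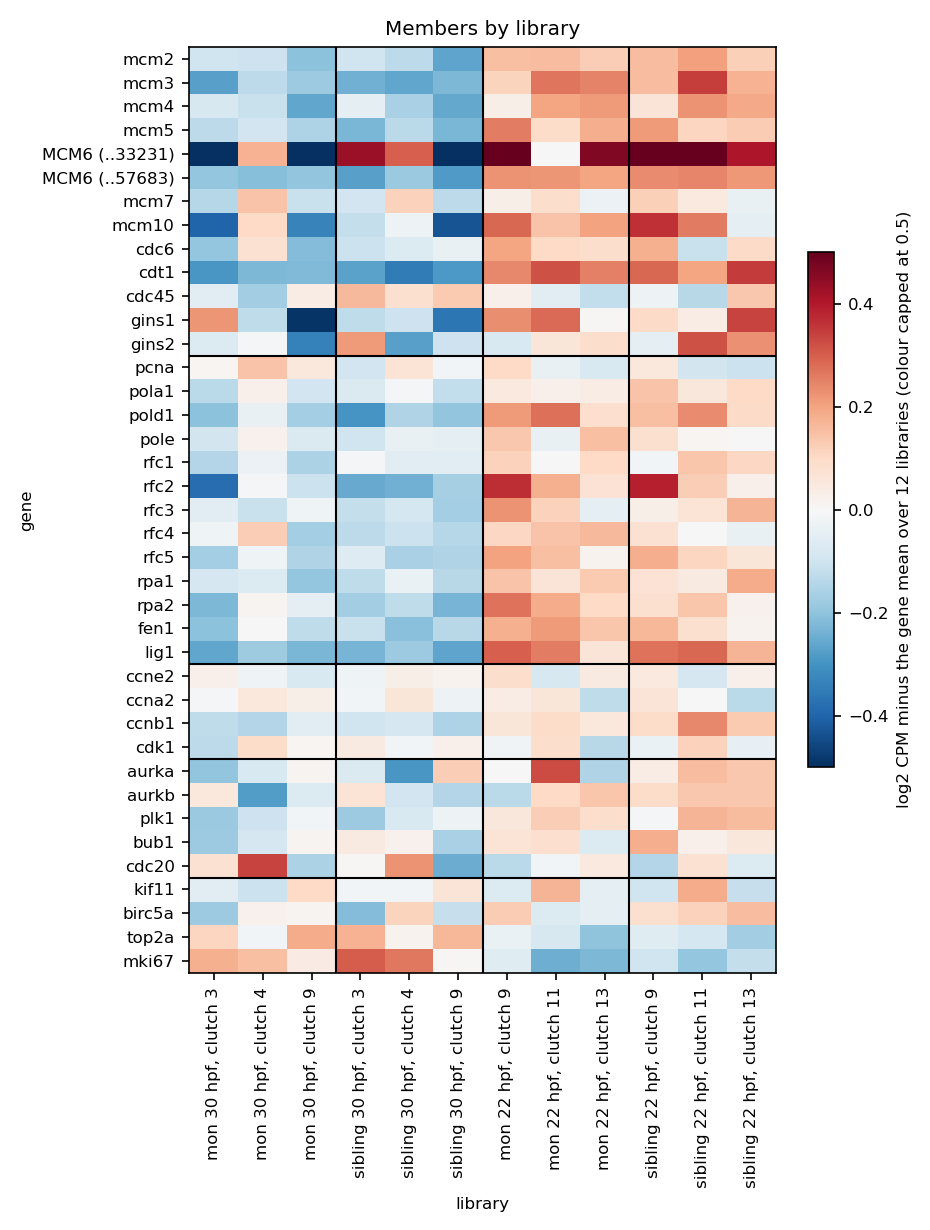
Level of each of the 39 genes in each library, as log2 CPM minus the gene's mean over the 12 libraries (red above, blue below, colour capped at 0.5), with genes in rows by role and libraries in columns by group. The upper 2 blocks, the 26 replication genes, are mostly blue in the 6 libraries at 30 hpf and red in the 6 at 22 hpf, whereas mki67 and top2a at the bottom run the other way, and mon and sibling columns of a stage look alike.

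Markers of other cell types changed over the same hours. All 12 neuronal markers were called higher at 30 hpf in both genotypes, and 10 of 12 skeletal muscle markers were higher and 2 lower. Of 14 markers of tailbud and presomitic mesoderm, 11 were lower and 2 higher in both genotypes. Of 14 neural progenitor markers 2 were lower and 6 higher in mon and 2 lower and 7 higher in siblings. Among all genes, 20.2% were lower and 22.1% higher in mon, and 20.7% were lower and 22.4% higher in siblings. The 14.3% of neural progenitor markers called lower in each genotype lay below those shares, and 42.9% in mon and 50.0% in siblings were higher. The summed muscle markers ranged over 16588 to 18241 CPM in mon and 17789 to 18530 CPM in siblings at 30 hpf, and over 2357 to 2829 CPM in mon and 2439 to 2899 CPM in siblings at 22 hpf. For the neuronal markers the sums were 982 to 1056 CPM in mon and 1044 to 1118 CPM in siblings at 30 hpf, against 548 to 584 CPM in mon and 569.7 to 576 CPM in siblings at 22 hpf. The tailbud markers summed to 159 to 176 CPM in mon and 164 to 185 CPM in siblings at 30 hpf, against 356 to 365.5 CPM in mon and 338 to 365 CPM in siblings at 22 hpf. The tailbud genes her7 and mespaa had no read in 1 library each. The part of these cell types in the fall of the replication genes was not tested. Erythroid markers rose with stage in siblings (9 of 12 higher and 1 lower) and moved both ways in mon (2 higher and 2 lower). In mon against siblings, 0 markers of neurons, neural progenitors, muscle and tailbud were called at either stage (edgeR and DESeq2). An unadjusted p under 0.05 was found there for 2 neuronal, 2 muscle and 1 tailbud marker at 30 hpf and for 1 neuronal marker at 22 hpf. Of all 21778 genes, 1210 had such a p at 30 hpf and 935 at 22 hpf. With the clutch block, 2 neuronal and 3 muscle markers were lower in mon at 30 hpf, against 1.56% of all genes lower.

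Of the 13 genes of origin licensing and the helicase, 8 fell in mon and 7 in siblings. That is 61.5% in mon and 53.8% in siblings, against 20.2% and 20.7% of all genes. The more abundant MCM6 (ENSDARG00000057683), a subunit of the ring, stood at 253, 249.8 and 253 CPM in mon at 30 hpf and at 240.0, 255 and 238 CPM in siblings at 30 hpf. At 22 hpf it stood at 338, 337 and 332 CPM in mon and at 341, 343 and 337 CPM in siblings. Every library at 30 hpf lay below every library at 22 hpf, and mon and siblings overlapped at each stage. The log2 fold change was -0.41 ± 0.04 in mon and -0.48 ± 0.04 in siblings (edgeR quasi-likelihood, Benjamini-Hochberg adjusted p = 7.34e-07 and 1.21e-07).

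The loading factor gene cdt1 (ENSDARG00000051854) had 28.8, 30.1 and 30.2 CPM in mon and 29.3, 27.6 and 28.9 CPM in siblings at 30 hpf. Its values at 22 hpf were 41.6, 44.0 and 42.0 CPM in mon and 43.1, 40.4 and 45.0 CPM in siblings. The stages did not overlap, and the genotypes overlapped at each stage. With log2 fold changes of -0.52 ± 0.07 in mon and -0.58 ± 0.07 in siblings, cdt1 had the largest fall called in the fit without the block in each genotype (edgeR, adjusted p = 2.37e-05 and 6.62e-06). With the block its values were -0.49 in mon and -0.55 in siblings. The falls of the scarce MCM6, mcm10, gins1 and lig1 were then larger in both genotypes, and that of rfc2 in mon (log2 -0.50). Its partner in loading the ring is encoded by cdc6 (ENSDARG00000009942), which averaged 53.2 ± 6.26 CPM in mon and 54.5 ± 1.28 CPM in siblings at 30 hpf, and 62.6 ± 2.65 CPM in mon and 59.7 ± 6.03 CPM in siblings at 22 hpf (SD, n = 3 each). It was called in mon (log2 -0.23, edgeR, adjusted p = 0.0395) and not in siblings (log2 -0.13, adjusted p = 0.242). The difference between the genotypes was -0.10 ± 0.12 and was not called (adjusted p = 1). The call in mon depended on each of 6 libraries, and without 1 of them the adjusted p ran from 0.0521 without sibling clutch 4 at 30 hpf to 0.168 without mon clutch 9 at 30 hpf. The others were mon clutches 9, 11 and 13 at 22 hpf and mon clutch 3 at 30 hpf. Without clutch 9 at either stage the value in mon was -0.12 (adjusted p = 0.4255). The block gave -0.37 in mon and called cdc6 in siblings too (log2 -0.26, edgeR, adjusted p = 0.00877).

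Of the ring subunits MCM2 to MCM7, counting the abundant MCM6, 5 of 6 fell in each genotype. That is 83.3%, against 20.2% of all genes in mon and 20.7% in siblings. The gene mcm2 averaged 302 ± 12.7 CPM in mon and 296 ± 17.6 CPM in siblings at 30 hpf, and 366 ± 4.33 CPM in mon and 370.3 ± 11.2 CPM in siblings at 22 hpf. Its log2 fold change was -0.28 in mon and -0.32 in siblings, with a call in both. For mcm3 the means were 223 ± 11.0 CPM in mon and 216 ± 2.62 CPM in siblings at 30 hpf, and 295 ± 17.4 CPM in mon and 298 ± 22.5 CPM in siblings at 22 hpf, a log2 fold change of -0.40 in mon and -0.47 in siblings. The values of mcm4 were -0.30 in mon and -0.32 in siblings, and those of mcm5 were -0.30 in mon and -0.35 in siblings. The largest adjusted p among these 4 genes was 0.0019, for mcm4 in mon (edgeR). The sixth subunit gene, mcm7 (ENSDARG00000101180), stood at 217, 264 and 221 CPM in mon and 223, 258 and 218 CPM in siblings at 30 hpf, and at 244, 254 and 234 CPM in mon and 259, 247 and 233 CPM in siblings at 22 hpf. Clutch 4 was the highest library of its group in both genotypes at 30 hpf, and the stages overlapped. The log2 fold change of mcm7 was -0.06 in mon and -0.08 in siblings (edgeR, adjusted p = 0.576 and 0.450). Under the clutch block, where the stage effect rests on clutch 9, it was called at -0.19 in mon and -0.20 in siblings (edgeR, adjusted p = 0.00222 and 0.000814).

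The second gene under the symbol MCM6 (ENSDARG00000033231) was close to the limit of detection. It stood at 0.197, 0.729 and 0.0887 CPM in mon and 0.890, 0.802 and 0.202 CPM in siblings at 30 hpf, and at 1.31, 0.636 and 0.913 CPM in mon and 1.07, 1.54 and 0.872 CPM in siblings at 22 hpf. The groups overlapped in mon and in siblings. Its log2 fold change of -1.47 ± 0.64 in mon and -0.87 ± 0.59 in siblings was not called (edgeR, adjusted p = 0.0754 and 0.260), but with the block it was -3.42 in mon and -2.75 in siblings (adjusted p = 0.000245 and 0.0029). Without mon clutch 4 at 30 hpf it was called in mon (log2 -2.70, adjusted p = 0.00796). Reads that fit both copies may be split or lost in the counting, so the value of this copy is uncertain.

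Among the partners that activate the ring, mcm10 (ENSDARG00000045815), whose protein acts when the helicase starts, averaged 16.6 ± 3.27 CPM in mon and 16.7 ± 2.38 CPM in siblings at 30 hpf, against 22.0 ± 1.12 CPM in mon and 21.8 ± 3.13 CPM in siblings at 22 hpf. It fell by 0.41 on the log2 scale in mon and by 0.39 in siblings (edgeR, adjusted p = 0.0306 and 0.0403). The call in mon was lost without any 1 of 4 mon libraries, clutches 9 and 13 at 22 hpf and clutches 3 and 9 at 30 hpf (adjusted p 0.0584 to 0.134). In siblings it was lost without any 1 of 5 libraries, sibling clutches 9 and 11 at 22 hpf, sibling clutches 3 and 9 at 30 hpf and mon clutch 9 at 22 hpf (adjusted p 0.0542 to 0.178). Its value moved to -0.73 in mon and -0.69 in siblings with the block. Without clutch 9 at either stage it was -0.28 in mon and -0.17 in siblings and called in neither (adjusted p = 0.225 and 0.482). The gene cdc45 (ENSDARG00000043720) had 23.6, 21.8 and 25.2 CPM in mon and 27.5, 26.0 and 26.9 CPM in siblings at 30 hpf, and 25.0, 23.6 and 22.5 CPM in mon and 24.1, 22.3 and 26.9 CPM in siblings at 22 hpf. The stages overlapped in both genotypes, with log2 fold changes of -0.01 ± 0.10 in mon and 0.13 ± 0.10 in siblings (edgeR, adjusted p = 0.932 and 0.291). The GINS subunit gene gins2 (ENSDARG00000002304) had 10.3, 10.8 and 8.56 CPM in mon and 12.6, 8.97 and 10.1 CPM in siblings at 30 hpf, and 10.3, 11.3 and 11.5 CPM in mon and 10.5, 13.5 and 12.7 CPM in siblings at 22 hpf. Its stages overlapped (log2 -0.16 in mon and -0.21 in siblings, adjusted p = 0.437 and 0.274). For gins1 (ENSDARG00000007624) the log2 fold change was -0.29 in mon and -0.36 in siblings (edgeR, adjusted p = 0.173 and 0.0886). The block called it in both genotypes, at -0.57 in mon and -0.62 in siblings (adjusted p = 0.0068 and 0.00295), and leaving out mon clutch 3 at 30 hpf called it in mon at -0.48 (adjusted p = 0.029).

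**Figure D2:**
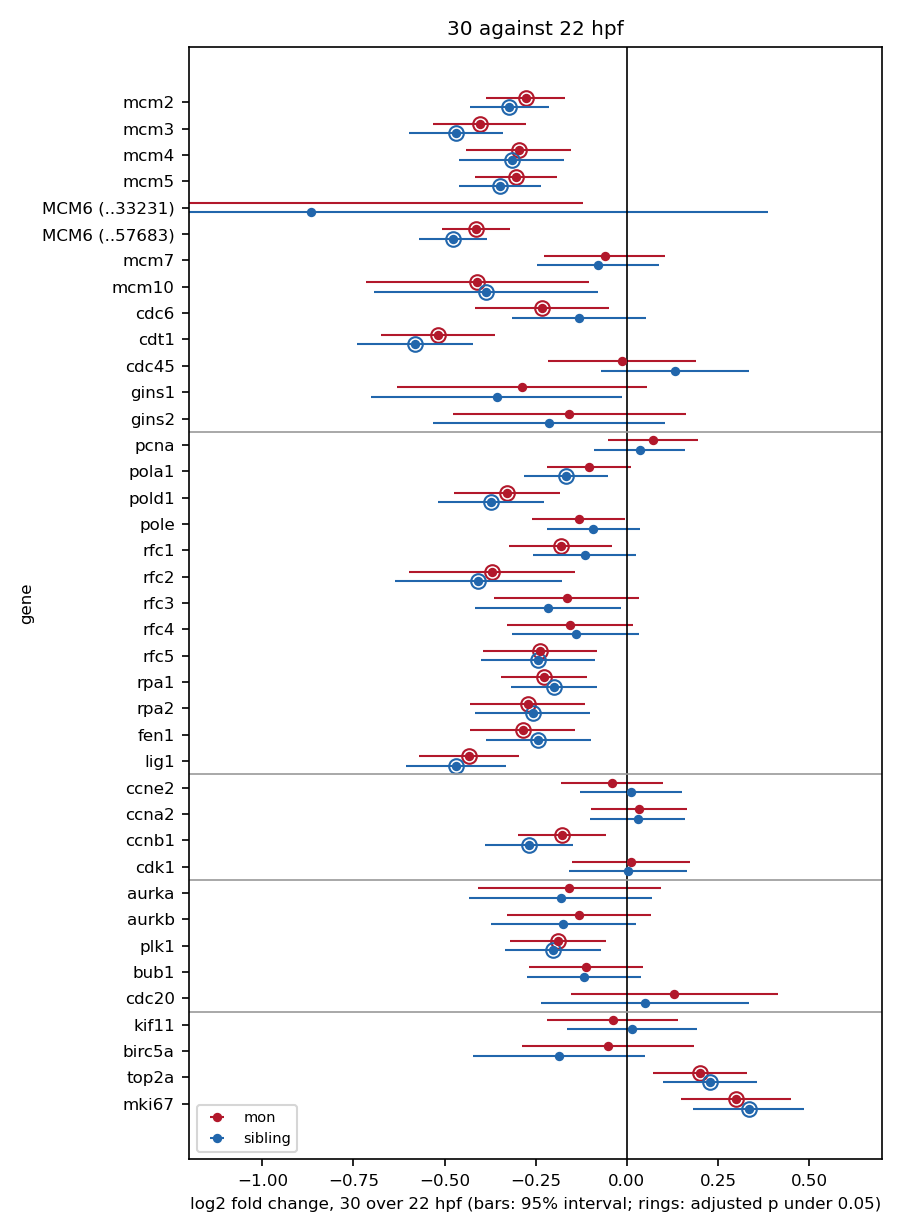
Log2 fold change of each gene at 30 over 22 hpf in mon (red) and siblings (blue), with 95% intervals as bars and rings where the adjusted p was under 0.05. The intervals of the scarce MCM6 copy run past the axis, and its value in mon of -1.47 lies outside it. Of the 26 genes in the upper 2 blocks, 16 are called lower in mon and 15 in siblings. In the blocks below, ccnb1 and plk1 are called lower, and mki67 and top2a are the called rises.

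At the fork, 8 of 13 genes fell in each genotype. That is 61.5%, against 20.2% of all genes in mon and 20.7% in siblings. DNA ligase 1, which seals the fragments of the lagging strand, is encoded by lig1 (ENSDARG00000060041). It stood at 101, 107 and 103 CPM in mon and 103, 107 and 101 CPM in siblings at 30 hpf, and at 149, 144 and 126 CPM in mon and 146, 148 and 136 CPM in siblings at 22 hpf. All 6 libraries at 30 hpf lay below all 6 at 22 hpf, and the log2 fold change was -0.43 ± 0.06 in mon and -0.47 ± 0.07 in siblings (edgeR quasi-likelihood, Benjamini-Hochberg adjusted p = 3.65e-05 and 1.5e-05). The sliding clamp gene pcna (ENSDARG00000054155), widely used as a marker of dividing cells, stood at 590.0, 645 and 607 CPM in mon and 547, 614 and 579.9 CPM in siblings at 30 hpf. At 22 hpf it stood at 626, 569.9 and 556 CPM in mon and at 607, 549 and 543 CPM in siblings. Its stages overlapped in both genotypes. The log2 fold change was 0.07 ± 0.06 in mon and 0.04 ± 0.06 in siblings (edgeR, adjusted p = 0.354 and 0.672), and without scaling beyond the library total it was 0.00 in mon and -0.05 in siblings. Its 95% interval ran from -0.05 to 0.20 in mon and from -0.09 to 0.16 in siblings.

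Of the polymerase genes, pold1, whose product extends the lagging strand, averaged 97.8 ± 6.15 CPM in mon and 92.7 ± 4.71 CPM in siblings at 30 hpf, against 123 ± 8.28 CPM in mon and 120.1 ± 5.92 CPM in siblings at 22 hpf. It fell by 0.33 on the log2 scale in mon and by 0.37 in siblings (edgeR, adjusted p = 0.000909 and 0.000284). The primer-making pola1 (ENSDARG00000045308) averaged 165 ± 9.67 CPM in mon and 165 ± 6.67 CPM in siblings at 30 hpf, against 177 ± 1.39 CPM in mon and 185 ± 5.56 CPM in siblings at 22 hpf. It fell in siblings (log2 -0.17, edgeR, adjusted p = 0.0207). Its value in mon of -0.10 was not called (adjusted p = 0.143), but was with the block (log2 -0.17, adjusted p = 0.00903). The call in siblings was lost without sibling clutch 9 at 22 hpf (adjusted p = 0.0747) and without sibling clutch 3 or 9 at 30 hpf (adjusted p = 0.0556 and 0.0887), and without clutch 9 at either stage it was -0.10 (adjusted p = 0.340). The leading-strand polymerase gene pole had values of -0.13 in mon and -0.09 in siblings (adjusted p = 0.091 and 0.238). The block called it in both genotypes, at -0.19 and -0.15 (adjusted p = 0.01 and 0.0441), as did leaving out mon clutch 11 at 22 hpf in mon (adjusted p = 0.0225).

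Clamp loader genes fell in part, 3 of 5 in mon and 2 of 5 in siblings. The gene rfc2 averaged 40.8 ± 5.29 CPM in mon and 39.1 ± 1.25 CPM in siblings at 30 hpf, against 52.7 ± 5.56 CPM in mon and 51.8 ± 6.97 CPM in siblings at 22 hpf. It fell by 0.37 on the log2 scale in mon and by 0.41 in siblings, and rfc5 fell by 0.24 in each (edgeR, adjusted p = 0.0109, 0.00564, 0.0149 and 0.0131). The large subunit gene rfc1 was called in mon at -0.18 (adjusted p = 0.0366) and not in siblings at -0.12 (adjusted p = 0.177). The difference between the genotypes was -0.07 ± 0.09 and was not called (adjusted p = 1). In mon the calls of these 3 genes depended on single mon libraries. That of rfc1 was lost without clutch 9 or 13 at 22 hpf or clutch 3 or 9 at 30 hpf (adjusted p 0.0937 to 0.152), that of rfc2 without clutch 9 at 22 hpf (0.0762) or clutch 3 at 30 hpf (0.0648), and that of rfc5 without clutch 9 at 22 hpf or clutch 3 or 9 at 30 hpf (0.0554 to 0.0959). Without clutch 9 at either stage the value of rfc1 in mon was -0.11 (adjusted p = 0.358). In siblings rfc5 was lost without sibling clutch 9 at 22 hpf (adjusted p = 0.0554). The remaining subunits were not called, rfc3 at -0.17 in mon and -0.22 in siblings and rfc4 at -0.16 in mon and -0.14 in siblings (adjusted p 0.0746 to 0.187). In mon rfc4 was called with the block (adjusted p = 0.0361) and without mon clutch 4 at 30 hpf (adjusted p = 0.0436).

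Both genes of the single-strand binding protein fell. The larger subunit gene rpa1 averaged 186 ± 8.69 CPM in mon and 188 ± 7.59 CPM in siblings at 30 hpf, against 217 ± 6.33 CPM in mon and 216 ± 11.2 CPM in siblings at 22 hpf. The log2 fold change of rpa1 was -0.23 in mon and -0.20 in siblings, and that of rpa2 was -0.27 in mon and -0.26 in siblings (edgeR, adjusted p = 0.00311, 0.00782, 0.00688 and 0.00961). In mon the call of rpa2 was lost without mon clutch 9 at 22 hpf (adjusted p = 0.0548). The flap nuclease gene fen1, which trims the lagging-strand fragments before Lig1 joins them, averaged 62.1 ± 4.48 CPM in mon and 60.3 ± 2.13 CPM in siblings at 30 hpf, against 75.7 ± 1.91 CPM in mon and 71.3 ± 3.66 CPM in siblings at 22 hpf. It fell by 0.29 on the log2 scale in mon and by 0.24 in siblings (edgeR, adjusted p = 0.00253 and 0.00795). Without clutch 9 at either stage, rpa1, rpa2, fen1, rfc2 and rfc5 were not called in either genotype, with adjusted p from 0.05003 for fen1 in mon to 0.246 for rfc5 in mon. In mon rfc5 then stood at -0.16 and rpa1 at -0.15.

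Of the 4 genes of cyclins and their kinase, 1 was called. That is 25.0% lower in each genotype, near the 20.2% of all genes in mon and 20.7% in siblings. The gene of cyclin B1, which drives entry into mitosis, is ccnb1 (ENSDARG00000051923). It stood at 100.0, 98.6 and 105 CPM in mon and 102, 103 and 98.3 CPM in siblings at 30 hpf, and at 114, 116 and 113 CPM in mon and 116, 129 and 119.5 CPM in siblings at 22 hpf. The stages did not overlap in either genotype. It fell by 0.18 ± 0.06 on the log2 scale in mon and by 0.27 ± 0.06 in siblings (edgeR, adjusted p = 0.0186 and 0.00105). The call in mon was lost with the block (adjusted p = 0.0898) and without any 1 of 4 mon libraries, clutches 9 and 11 at 22 hpf and clutches 3 and 4 at 30 hpf (adjusted p 0.0576 to 0.0699). The cyclin A2 gene ccna2 (ENSDARG00000011094), which acts in S phase and G2, had 194, 202 and 198 CPM in mon and 193, 203 and 191 CPM in siblings at 30 hpf, and 199.7, 203 and 178 CPM in mon and 203, 194 and 177 CPM in siblings at 22 hpf. All 4 groups overlapped, and its log2 fold change was 0.03 ± 0.06 in each genotype (edgeR, adjusted p = 0.704 in mon and 0.734 in siblings). The gene ccne2, of a cyclin that acts at S-phase entry, had log2 values of -0.04 in mon and 0.01 in siblings, and the mitotic kinase gene cdk1 of 0.01 in mon and 0.00 in siblings (adjusted p 0.655 to 0.975).

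One of 5 genes of mitotic kinases and the spindle checkpoint was called. That is 20.0% lower in each genotype, near the 20.2% of all genes in mon and 20.7% in siblings. The Polo kinase gene plk1 (ENSDARG00000058471) stood at 171, 180.3 and 192 CPM in mon and 171, 184 and 191 CPM in siblings at 30 hpf, and at 202, 211 and 206 CPM in mon and 193, 218 and 216 CPM in siblings at 22 hpf. The stages did not overlap, but the clutch 9 libraries lay close together, at 192 CPM at 30 hpf and 202 CPM at 22 hpf in mon. Its log2 fold change was -0.19 in mon and -0.20 in siblings (edgeR, adjusted p = 0.0214 and 0.0143). The block ended both calls (log2 -0.04 in mon and -0.05 in siblings, adjusted p = 0.617 and 0.507). So did leaving out mon clutch 11 at 22 hpf or mon clutch 3 or 4 at 30 hpf in mon (adjusted p 0.0546 to 0.103), and sibling clutch 11 or 13 at 22 hpf or sibling clutch 3 at 30 hpf in siblings (adjusted p 0.0562 to 0.0777). The gene cdc20 (ENSDARG00000100741), whose protein starts anaphase, had 94.9, 114 and 80.8 CPM in mon and 90.5, 105 and 75.8 CPM in siblings at 30 hpf, and 82.1, 89.3 and 93.2 CPM in mon and 81.3, 94.9 and 86.0 CPM in siblings at 22 hpf. Clutch 4 was high and clutch 9 low at 30 hpf in both genotypes, and the stages overlapped (log2 0.13 ± 0.13 in mon and 0.05 ± 0.13 in siblings, adjusted p = 0.465 and 0.794). The Aurora kinase genes aurka and aurkb and the checkpoint kinase gene bub1 had values of -0.16, -0.13 and -0.11 in mon and -0.18, -0.17 and -0.12 in siblings (adjusted p 0.148 to 0.310). With the block bub1 was called in both, at -0.19 in mon and -0.20 in siblings (adjusted p = 0.0417 and 0.0375).

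Both called rises were among the 4 genes of spindle and mitotic chromosomes. That is 50.0% higher in each genotype, against 22.1% of all genes in mon and 22.4% in siblings. The Ki-67 gene mki67 (ENSDARG00000091150), whose protein coats mitotic chromosomes and marks cycling cells, stood at 707, 694 and 643 CPM in mon and 772, 749.7 and 628 CPM in siblings at 30 hpf. At 22 hpf it stood at 599, 527 and 535 CPM in mon and at 583, 546 and 575 CPM in siblings. The stages did not overlap, although clutch 9 was the lowest library of each group at 30 hpf and the highest of each at 22 hpf. It rose by 0.30 ± 0.07 on the log2 scale in mon and by 0.33 ± 0.07 in siblings (edgeR, adjusted p = 0.00313 and 0.00132). With the block, which rests on clutch 9, the value was 0.09 in mon and no longer called (adjusted p = 0.1005), and 0.12 in siblings and called (adjusted p = 0.0277). Topoisomerase 2a, which untangles sister chromosomes, is encoded by top2a (ENSDARG00000024488). It stood at 455, 418 and 481 CPM in mon and 477, 428 and 474 CPM in siblings at 30 hpf, and at 412, 399 and 367 CPM in mon and 405, 398 and 375 CPM in siblings at 22 hpf. Every library at 30 hpf lay above every library at 22 hpf, and it rose by 0.20 ± 0.06 in mon and by 0.23 ± 0.06 in siblings (edgeR, adjusted p = 0.0135 and 0.00552). Without scaling beyond the library total its calls were lost (log2 0.13 in mon and 0.14 in siblings, adjusted p = 0.107 and 0.0675). In mon its call was lost too without mon clutch 13 at 22 hpf (adjusted p = 0.0735) or mon clutch 9 at 30 hpf (adjusted p = 0.0796).

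The other mitotic genes were not called. The survivin gene birc5a (ENSDARG00000075621), a chromosomal passenger, stood at 15.5, 17.8 and 17.7 CPM in mon and 15.1, 18.9 and 16.2 CPM in siblings at 30 hpf, and at 19.2, 16.7 and 17.0 CPM in mon and 18.5, 19.0 and 19.6 CPM in siblings at 22 hpf. The stages overlapped, with log2 fold changes of -0.05 in mon and -0.19 in siblings (edgeR, adjusted p = 0.744 and 0.195). The spindle motor gene kif11 (ENSDARG00000010948) had values of -0.04 in mon and 0.01 in siblings (adjusted p = 0.750 and 0.910). With the block it was called higher at 30 hpf, by 0.14 in mon and 0.20 in siblings (adjusted p = 0.0312 and 0.00198), so that its sign in mon turned.

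**Figure D3:**
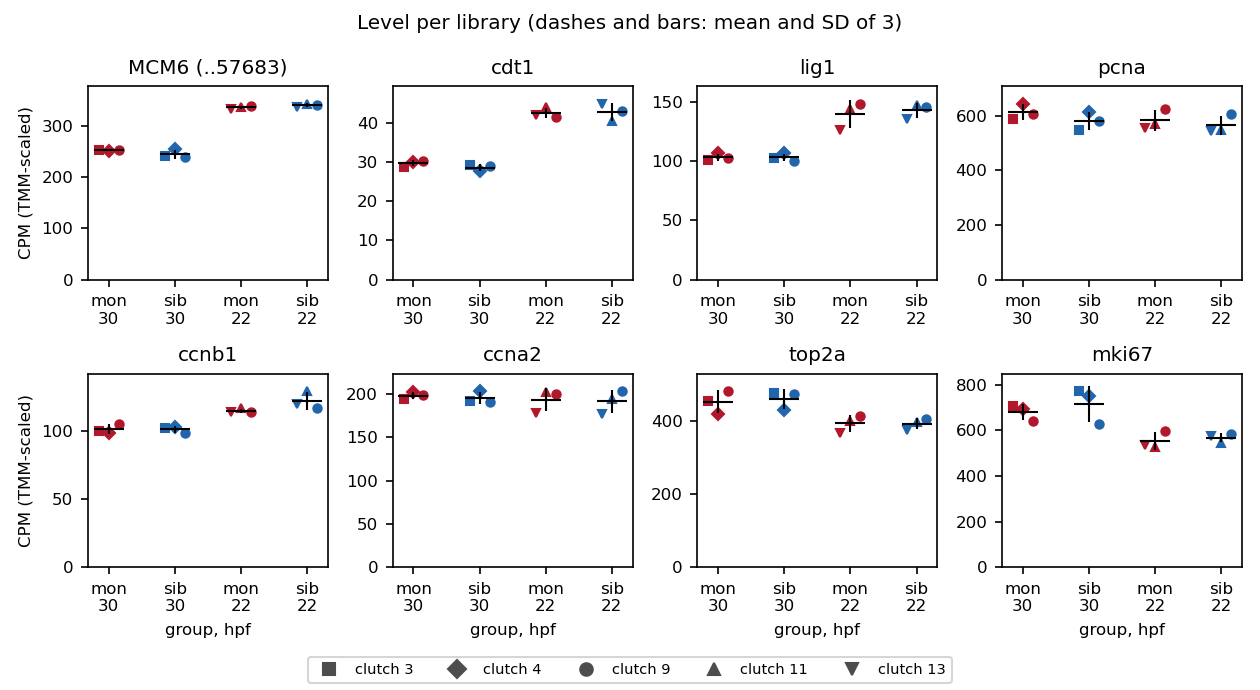
CPM per library of 8 genes, with mon (red) left of siblings (blue) at 30 hpf and then at 22 hpf; marker shapes give the clutch, and dashes and bars give the mean and SD of 3 libraries. The abundant MCM6, cdt1, lig1 and ccnb1 are lower at 30 hpf in both genotypes, top2a and mki67 are higher, and pcna and ccna2 overlap between stages.

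Summed by role, licensing and helicase genes held 1592 to 1715 CPM in mon and 1554 to 1666 CPM in siblings at 30 hpf, against 2005 to 2043 CPM in mon and 2003 to 2072 CPM in siblings at 22 hpf. The stages did not overlap. Genes of polymerases, clamp and single-strand binding held 1555 to 1698 CPM in mon and 1523 to 1623 CPM in siblings at 30 hpf, against 1703 to 1839 CPM in mon and 1691 to 1787 CPM in siblings at 22 hpf, and each genotype's stages did not overlap. The mitotic kinase and checkpoint genes were lower at 30 hpf without overlap as well, with 430.4 to 458 CPM in mon and 434 to 459.8 CPM in siblings, against 464 to 498 CPM in mon and 469.8 to 503 CPM in siblings at 22 hpf. Genes of the spindle and mitotic chromosomes held 1324 to 1379.7 CPM in mon and 1336 to 1471 CPM in siblings at 30 hpf, against 1121 to 1229.6 CPM in mon and 1163 to 1201 CPM in siblings at 22 hpf, higher at 30 hpf without overlap. The sums of the cyclins and cdk1 overlapped, with 415 to 429.7 CPM in mon and 417 to 433 CPM in siblings at 30 hpf and 414 to 446 CPM in mon and 422 to 451 CPM in siblings at 22 hpf. These sums are set mainly by their most abundant genes and are given without a test. For all 39 genes the sums were 5416 to 5625 CPM in mon and 5292 to 5585 CPM in siblings at 30 hpf, and 5737 to 5980 CPM in mon and 5772 to 5935 CPM in siblings at 22 hpf.

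The second comparison set mon against siblings at each stage, and none of the 39 genes was called. At 30 hpf edgeR called 0 lower and 0 higher, against 0.551% of all genes lower and 0.239% higher. At 22 hpf it also called 0 lower and 0 higher, against 0.312% of all genes lower and 0.133% higher. At these shares fewer than 1 of 39 genes would be called at either stage, so the count alone says little. No member had an unadjusted p under 0.05 at either stage, against 1210 of all 21778 genes at 30 hpf and 935 at 22 hpf. DESeq2 called 0 as well. With the clutch block edgeR called 0, and 3 genes had an unadjusted p under 0.05 at 30 hpf and 0 at 22 hpf. Of all 21778 genes, 2687 had such a p at 30 hpf with the block and 1870 at 22 hpf. Under that block 1.56% of all genes were lower and 1.53% higher at 30 hpf, and 0.845% lower and 0.634% higher at 22 hpf.

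Leaving aside the scarce MCM6 copy, the log2 fold changes of the other 38 genes lay between -0.19 and 0.11 at 30 hpf and between -0.15 and 0.12 at 22 hpf. Of these 38, 36 lay within 0.1 of zero at 30 hpf and 34 at 22 hpf. In the fit without the clutch block, the 95% interval stayed within a 1.25-fold change in either direction for 33 of 38 genes at 30 hpf and for 35 of 38 at 22 hpf. The interval bounds farthest from zero belonged to the low gins1 and gins2, at 0.44 and -0.41 at 30 hpf and 0.36 and -0.47 at 22 hpf. The median over the 39 genes was 0.00 at 30 hpf and -0.01 at 22 hpf, and that of all genes was 0.00 at both. For the erythroid markers the median was -5.41 at 30 hpf and -4.50 at 22 hpf. These are values of whole embryos, and blood cells were not measured apart.

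**Figure D4:**
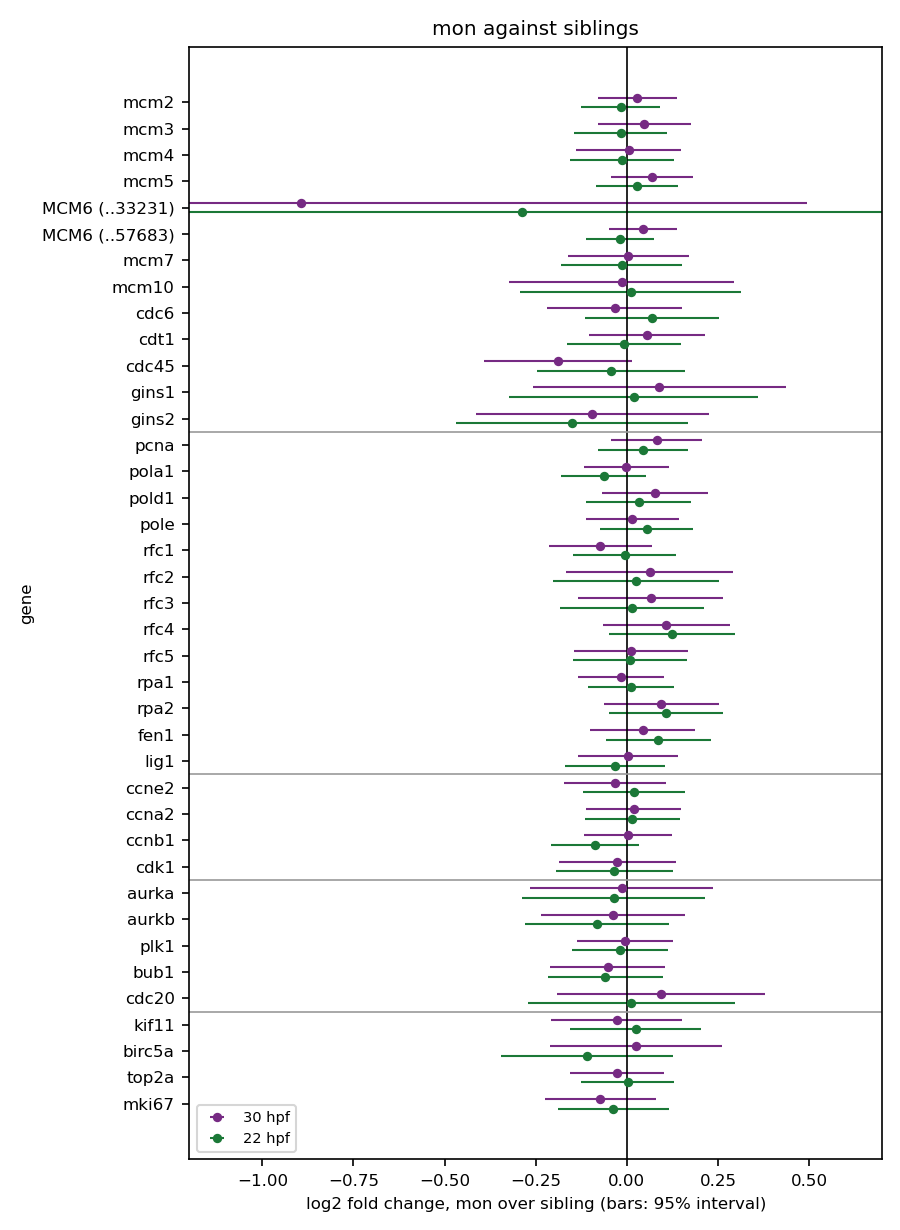
Log2 fold change of each gene in mon over siblings at 30 hpf (purple) and 22 hpf (green), with 95% intervals as bars. The points crowd around 0 and no gene is called, and the wide intervals of the scarce MCM6 copy run past the axis.

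Some genes with stage effects called in the fit without the block had mon effects near zero. The genes cdt1, the abundant MCM6, lig1 and mki67 are given as examples. Others lay farther from zero without a call, among them the scarce MCM6 and, from the wider lists below, gmnn and orc3. For gmnn the mon effect was 0.30 at 30 hpf and 0.22 at 22 hpf, and for orc3 it was 0.17 at 30 hpf. For cdt1 the mon effect was 0.05 at 30 hpf (95% interval -0.10 to 0.21) and -0.01 at 22 hpf (-0.16 to 0.15). For the abundant MCM6 (ENSDARG00000057683) it was 0.04 at 30 hpf (-0.05 to 0.14) and -0.02 at 22 hpf (-0.11 to 0.07). Its intervals are among the narrowest, and at both stages they leave out a change as large as its stage fall of -0.41 in mon. For lig1 the mon effect was 0.00 at 30 hpf (-0.13 to 0.14) and -0.03 at 22 hpf (-0.17 to 0.10), and for mki67 it was -0.07 at 30 hpf (-0.22 to 0.08) and -0.04 at 22 hpf (-0.19 to 0.11). These intervals come from the fit without the clutch block. With the block mki67 stood at -0.07 ± 0.03 at 30 hpf (edgeR, unadjusted p = 0.0358, adjusted p = 0.348). The stage and mon comparisons share libraries, so these values stand side by side without a test between them.

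The largest mon effects did not pass the test. The scarce MCM6 (ENSDARG00000033231) had values of -0.90 ± 0.66 at 30 hpf and -0.29 ± 0.57 at 22 hpf (edgeR, adjusted p = 1 at both), and its libraries, given above, overlapped. Next at 30 hpf came cdc45 at -0.19 ± 0.10 (95% interval -0.39 to 0.01, adjusted p = 0.948), whose 3 mon libraries of 23.6, 21.8 and 25.2 CPM all lay below the 3 sibling libraries of 27.5, 26.0 and 26.9 CPM. It was the 1 gene of the 39 whose groups did not overlap at 30 hpf, where 6.3% of all genes were lower without overlap and 6.05% higher. With the clutch block cdc45 stood at -0.19 ± 0.09 at 30 hpf (edgeR, unadjusted p = 0.0293, adjusted p = 0.316). At 22 hpf gins2 was next at -0.15 ± 0.15 (95% interval -0.47 to 0.17, adjusted p = 1), and its groups overlapped. At this stage ccnb1 and pola1 were lower in mon without overlap and rfc4 was higher (log2 -0.09, -0.06 and 0.12, adjusted p = 1 each), against 4.33% of all genes lower and 4.12% higher without overlap.

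In some genes the libraries of a clutch lay close together in the genotypes, as in mcm7. In others they lay farther apart, as in mki67 for clutch 3 at 30 hpf, given above. For mcm7 at 30 hpf, the mon library of clutch 4 held 264 CPM and the sibling library 258 CPM, and for clutch 9 the mon library held 221 CPM and the sibling library 218 CPM. The sliding clamp gene pcna was higher in mon in all 6 clutch pairs, 3 at each stage, the 1 gene of the 39 with the same sign in every pair. How many of all genes keep 1 sign in every pair was not counted, so this is not read as a trait of pcna. Taking clutch into the fit added no call in mon against siblings. The smallest adjusted p with the block was 0.156 for pcna at 30 hpf (log2 0.08, unadjusted p = 0.00844) and 0.635 for ccnb1 at 22 hpf (log2 -0.09). In clutch 9, the clutch collected at both stages, 32 of 39 genes were lower at 30 hpf in mon and 33 of 39 in siblings, with median log2 ratios of -0.26 in mon and -0.24 in siblings. These ratios rest on 1 library of each stage and have no test. How many of all genes were lower in clutch 9 was not counted, so this is not read as a trait of the 39 genes.

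Wider lists of cell cycle genes were counted at 30 against 22 hpf in the same fit. They too were chosen with earlier results of these data known. Of 40 other replication genes, 18 were lower and 1 higher in each genotype (edgeR, median log2 -0.21 in both). That is 45.0% lower and 2.5% higher, against 20.2% and 22.1% of all genes in mon and 20.7% and 22.4% in siblings. Among them orc3, of the origin recognition complex, fell by 0.61 on the log2 scale in mon and by 0.74 in siblings, and gmnn, the gene of the Cdt1 inhibitor geminin, fell by 0.64 in mon and by 0.72 in siblings (edgeR, adjusted p from 8.09e-07 to 0.000397). The nuclease gene dna2 fell by 0.33 in mon and by 0.40 in siblings. Of the others with the smallest p, dbf4, which activates the kinase that fires origins, fell by 0.39 in mon and by 0.37 in siblings, and mcmbp, a partner of MCM proteins, fell by 0.21 in mon and by 0.45 in siblings. The 1 riser was uhrf1, a factor for maintenance methylation, in mon (log2 0.18, adjusted p = 0.00488) and tyms, thymidylate synthase, in siblings (log2 0.47, adjusted p = 0.00146). The value of uhrf1 in siblings was 0.08 (adjusted p = 0.151) and that of tyms in mon was 0.19 (adjusted p = 0.172). The difference between the genotypes was 0.09 ± 0.06 for uhrf1 and -0.29 ± 0.15 for tyms, and neither was called (edgeR, adjusted p = 1). Both genes were named after their values were seen.

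Of 43 other mitosis genes, 3 were lower and 7 higher in mon and 3 were lower and 8 higher in siblings, with medians of 0.01 in mon and 0.03 in siblings. The 16.3% called higher in mon and 18.6% in siblings lay below the 22.1% and 22.4% of all genes. The 7.0% called lower in each genotype lay below the 20.2% of all genes in mon and 20.7% in siblings. The kinesin gene kif22 fell by 0.29 in mon and by 0.27 in siblings (edgeR, adjusted p = 0.00158 and 0.00221). The cytokinesis gene PRC1 (ENSDARG00000005993) rose by 0.46 in mon and by 0.30 in siblings (adjusted p = 0.000394 and 0.0106), and ect2, which sets the division plane, rose by 0.17 in mon and by 0.27 in siblings (adjusted p = 0.0437 and 0.00222). The cyclin gene ccnb3 rose by 0.32 in mon and by 0.29 in siblings, and the kinetochore gene cenpf rose by 0.20 in each (adjusted p 0.00475 to 0.00841). In siblings the calls of ccnb3 and cenpf were lost without scaling (adjusted p = 0.0544 and 0.0988). The checkpoint gene mad2l1 fell by 0.36 in mon and by 0.28 in siblings (adjusted p = 0.00322 and 0.0176), and in mon the block ended its call (adjusted p = 0.0541).

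Of 27 regulators of the step from G1 to S phase, more were called lower than higher, 14 lower and 2 higher in mon and 15 lower and 3 higher in siblings, with medians of -0.31 in mon and -0.32 in siblings. The shares lower were 51.9% in mon and 55.6% in siblings, against 20.2% and 20.7% of all genes. The G1 kinase gene cdk4 averaged 19.4 ± 2.37 CPM in mon and 17.3 ± 2.06 CPM in siblings at 30 hpf, against 31.5 ± 1.93 CPM in mon and 32.2 ± 0.445 CPM in siblings at 22 hpf (log2 -0.70 in mon and -0.89 in siblings, edgeR, adjusted p = 4.72e-05 and 3.48e-06). The growth regulator gene mycn fell by 0.49 in mon and by 0.56 in siblings, TFDP1 (ENSDARG00000019293), the partner of E2F factors, by 0.42 in mon and by 0.46 in siblings, e2f3 by 0.53 in mon and by 0.50 in siblings, and the retinoblastoma gene rb1 by 0.33 in mon and by 0.39 in siblings (adjusted p from 8.93e-07 to 0.000193). Genes of cell cycle exit went both ways. Of 21, 7 were lower and 3 higher in mon and 7 lower and 4 higher in siblings. Their medians were -0.18 in mon and -0.16 in siblings. In mon 33.3% were lower and 14.3% higher, against 20.2% and 22.1% of all genes. In siblings 33.3% were lower and 19.0% higher, against 20.7% and 22.4% of all genes. The growth arrest gene GADD45G (ENSDARG00000016725) averaged 46.0 ± 2.57 CPM in mon and 48.5 ± 1.62 CPM in siblings at 30 hpf, against 19.0 ± 1.95 CPM in mon and 20.3 ± 2.11 CPM in siblings at 22 hpf (log2 1.27 in mon and 1.26 in siblings, adjusted p = 1.21e-08 and 1.27e-08). GADD45B (ENSDARG00000027744) fell by 1.14 in mon and by 1.54 in siblings. The antiproliferative genes btg2, btg1 and tob1b fell by 0.56, 0.31 and 0.54 in mon and by 0.43, 0.28 and 0.40 in siblings (adjusted p from 2.05e-05 to 0.00045).

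**Figure D5:**
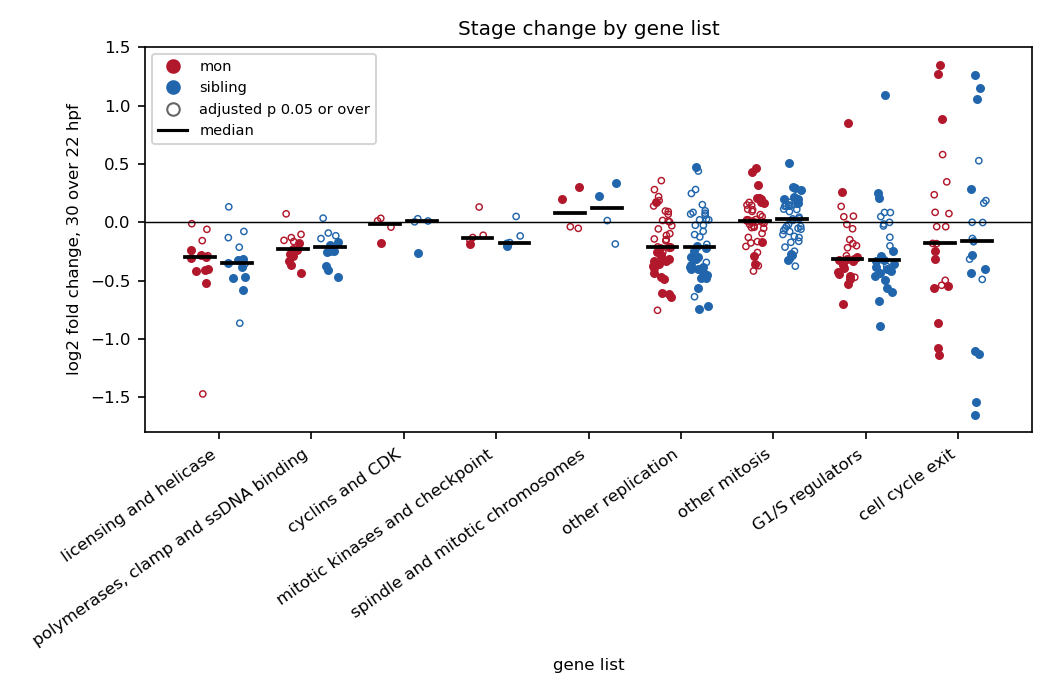
Log2 fold change at 30 over 22 hpf of each tested gene, by role group of the 39 genes and by wider list, in mon (red, left) and siblings (blue, right); filled points had an adjusted p under 0.05, and bars are medians. Medians lie below 0 for the licensing, polymerase, mitotic kinase, other replication, G1/S and cell cycle exit lists, near 0 for cyclins and other mitosis, and above 0 for spindle and mitotic chromosomes.

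In mon against siblings these 4 wider lists gave no call, 0 of 131 genes at 30 hpf and 0 of 131 at 22 hpf (edgeR and DESeq2). At the shares of all genes given above, only about 1 of 131 would be called at 30 hpf, so 0 calls say little. An unadjusted p under 0.05 was found for 4 of them at 30 hpf and for 2 at 22 hpf, and with the block for 20 at 30 hpf and for 6 at 22 hpf. Of all 21778 genes, 1210 had such a p at 30 hpf and 935 at 22 hpf. With the block 2687 did at 30 hpf and 1870 at 22 hpf. With the block 1 of the 131 was called at 30 hpf, below the 1.56% of all genes lower and 1.53% higher. It was the S-phase activator gene e2f2. It averaged 33.6 ± 2.62 CPM in mon and 40.6 ± 4.28 CPM in siblings at 30 hpf (log2 -0.27 ± 0.11, edgeR, adjusted p = 0.668, and 0.0145 with the block). In mon at 22 hpf its mean was 39.1 ± 4.92 CPM, against 38.3 ± 3.61 CPM in siblings (log2 0.03, adjusted p = 1). The change of its mon effect between stages was not called (log2 difference -0.30 ± 0.15, adjusted p = 1).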

How the data were processed

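Ribosomal RNA was depleted from total RNA of whole embryos, and strand-specific libraries were sequenced, per the labels' protocols. The authors deposited read counts per Ensembl gene as HTSeq wrote them. FastQC, cutadapt, TopHat2 2.0.11, Cufflinks 2.2.1 and the build GRCz11 are named in the submitters' processing notes. The annotation release and the counting's strand setting were not given in the sources used here. All columns were mapped to samples by their names, and 0 were left over.

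Counts as deposited were fitted with edgeR 4.0.16 (filterByExpr, TMM, robust quasi-likelihood F test) in R 4.3.3, with 4 groups, over 21778 genes, and p-values were adjusted by Benjamini-Hochberg over all of them. A call is an adjusted p under 0.05. Standard errors and 95% intervals were worked back from the F statistic and are approximate. Totals of 18233320 to 23135676 counts limit mainly the low genes. CPM are TMM-scaled, and figures and clutch 9 ratios on the log2 scale use a pseudocount of 0.1 CPM.

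The labels give clutches as replicates. Deviations from group means over 10884 genes with a log2 CPM over 3 correlated at 0.509 to 0.69 in the 6 same-clutch pairs of mon and siblings, and at -0.193 or less in other pairs, so clutches pair the libraries. No 2 libraries of a group agreed within sampling noise (chi-square per gene from 6.46). Alternatives were other scaling, no filter, DESeq2 1.42.0, clutch as a block, only the groups compared, and leaving out libraries. The edgeR fit without the block was tried on simulated counts, for the stage effect in siblings only. Those counts held no pairing by clutch, so they do not bear on clutch effects, the block fit or DESeq2.

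Members and lists were chosen with earlier results of these data known. Library values are printed for pcna, the members with the most and least negative stage effect of each role group in siblings, and the members with the 2 largest mon effects at each stage. Of each other list up to 4 genes with the smallest p are named. Library values of mcm7, cdt1 and top2a and of the abundant MCM6, and the values of uhrf1 and tyms, were added after seeing them. Of the wider and marker lists, 14 names found no ID.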

Additional observations from a re-analysis of the deposited data

How the results depend on the processing

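The 8 genes called lower in mon and the 10 genes called in siblings under every one of the 19 alternatives were the abundant MCM6 (ENSDARG00000057683), cdt1, lig1, mcm2, mcm3, mcm4, mcm5 and pold1 in both, and ccnb1 and mki67 in siblings besides. How many of all genes keep their call under every alternative was not counted, so this is not read as a trait of these genes. Without clutch 9, with 2 libraries a group, 9 of the 39 genes were lower and 2 higher in mon. In siblings 10 were lower and 2 higher. Of all genes, 3194 were then lower and 4074 higher in mon, and 3457 were lower and 4266 higher in siblings. The counts without single libraries were 11 to 18 lower and 1 to 2 higher in mon, the lowest of 11 without mon clutch 9 at 22 hpf, and 14 to 17 lower and 2 higher in siblings. Over all genes those fits called 3761 to 4426 lower and 4262 to 4881 higher in mon. In siblings they called 3891 to 4561 lower and 4349 to 5064 higher. Without scaling 22 were lower and 1 higher in mon and 25 lower and 1 higher in siblings, while the median of all genes shifted to -0.09 in mon and -0.10 in siblings. Of all genes, 5420 were lower and 4270 higher in mon without scaling, and 5781 were lower and 4282 higher in siblings. With clutch as a replicate block, where stage effects rest on clutch 9, 23 were lower and 2 higher in mon and 22 lower and 3 higher in siblings, and kif11 turned to 0.14 in mon. The cause was not tested. DESeq2 called 17 lower and 2 higher in each genotype. Of all genes it called 4419 lower and 4883 higher in mon, and 4490 lower and 4999 higher in siblings. The 19 settings called 0 of the 39 genes in mon against siblings, as did the 18 run for the difference of stage effects, which needs all groups. Counts limit the precision of the scarce MCM6 copy, gins1 and gins2. The planned search of promoters for motifs was not run.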
